A study of Mus musculus with 20 samples.

Results

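The 4 duodenal lymph node libraries were compared with the 4 inguinal lymph node libraries, 8 of the 20 libraries in the series, chosen by the position that the labels give. The duodenal node drains the upper small intestine, and the inguinal node, which drains skin, is the submitters' non-gut reference. Whole nodes of Rag1-/- (B6.129S7-Rag1tm1Mom/J) mice aged 9 weeks were profiled as polyA RNA at both sites and at the jejunal, ileal and ceco-colonic nodes, which give 12 further libraries. Every library, inguinal ones included, carries the Rag1 mutation, so mature T and B cells are lacking at both sites and no library of an intact mouse enters the comparison. The labels do not say whether libraries came from separate animals or from pooled nodes, so the p-values measure the spread between libraries only.

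A lymph node is built by mesenchymal reticular cells, high endothelial venules and lymphatic vessels, and it is populated by lymphocytes, innate lymphoid cells, macrophages and dendritic cells. Positional transcription factors, above all Hox genes, record where along the body a mesenchyme arose. Nodes that drain the gut are known for retinoic acid production and for the addressin MAdCAM-1, which receives lymphocytes bearing the gut-homing integrin, whereas skin-draining nodes receive dendritic cells from the epidermis and dermis.

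Rag1 (ENSMUSG00000061311), the recombinase subunit whose gene is mutated, was still counted as RNA in every library, at 2.32, 2.85, 2.15 and 2.91 CPM in duodenal libraries 1 to 4 and at 3.43, 3.20, 2.83 and 3.22 CPM in inguinal libraries 1 to 4. CPM are TMM-scaled estimated counts, given per mega count of the library. Its log2 fold change, duodenal minus inguinal, was -0.31 ± 0.12 (standard error, n = 4 and 4), which missed the threshold (edgeR quasi-likelihood test, Benjamini-Hochberg adjusted p = 0.0704). It passed without duodenal library 4 (-0.37, edgeR adjusted p = 0.042), with the replicate number as a block (-0.31, edgeR adjusted p = 0.031) and under DESeq2 (-0.32, adjusted p = 0.038). Because all libraries carry the mutation, this level checks no label. Each duodenal library held between 189.4 and 227.9 M (mega) estimated counts, and each inguinal library between 148.2 and 294.2 M. Mitochondrial genes took 1.78% to 2.41% and 1.52% to 2.10% of them.

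The duodenal libraries were not alike in what surrounds a node, and this is given before any result that rests on them. Summed over 25 tested pancreatic acinar genes, the level in duodenal libraries 1 and 2 was 53500 and 29890 CPM, that in libraries 3 and 4 was 41.4 and 57.7 CPM, and that in the inguinal libraries was 26.2 to 32.4 CPM. The sum over 16 pericyte and smooth muscle genes ran in another order, with 1119, 2433, 2518 and 1398 CPM in duodenal libraries 1 to 4 against 1605 to 1809 CPM in inguinal ones. Libraries 2 and 3 were therefore the ones high in muscle transcripts, while libraries 1 and 2 were the ones with acinar transcripts. Glial and neuronal genes, 14 of them, summed to 188, 271, 276 and 231 CPM in the duodenal libraries and to 153 to 204 CPM in the inguinal ones. Adipocyte genes were as uneven within the inguinal group, with a sum of 1374 CPM in inguinal library 1 and 433 to 667 CPM in the others, against 371 to 832 CPM in duodenal nodes. Of the 19 tested T-cell genes 5 were called higher and 5 lower in duodenal nodes, and their sum was 608 to 688 CPM against 726 to 800 CPM. In bulk tissue, fewer cells of a type and less RNA per cell cannot be told apart.

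**Figure D1:**
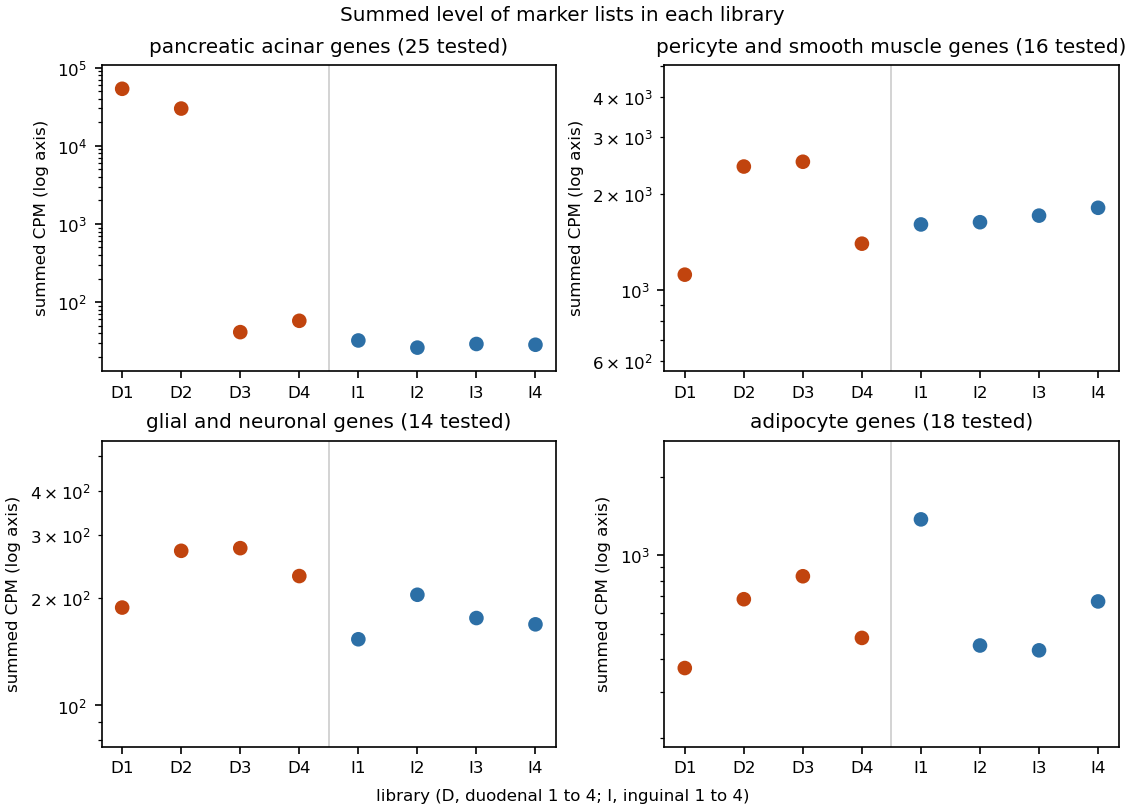
Summed CPM (log axis) of 4 marker lists in duodenal libraries 1 to 4 (D1 to D4) and inguinal libraries 1 to 4 (I1 to I4), 1 point per library. Acinar transcripts stand at 53500 and 29890 CPM in D1 and D2 only, smooth muscle transcripts are highest in D2 and D3 (2433 and 2518 CPM), and adipocyte transcripts are highest in I1 (1374 CPM).

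Duodenal and inguinal nodes differed in a large share of the genes measured. Of 29411 genes tested, 3868 (13.2%) were called higher and 3561 (12.1%) lower in duodenal nodes, a call being an adjusted p under 0.05 in edgeR's quasi-likelihood test. A difference was said to hold in libraries 3 and 4 where the fit without duodenal libraries 1 and 2 made the same call and both of these libraries lay outside the range of the 4 inguinal libraries. By that rule 2516 genes (8.55%) held as higher and 2103 (7.15%) as lower, leaving 1352 higher and 1458 lower calls that did not hold. Fewer libraries enter the second fit, so a call can be lost there without a change in the fold. Changes of at least 2-fold were mostly upward, with 1413 higher (1083 holding) against 741 lower (599 holding). The median log2 fold change of all genes was 0.02, and 0.01 without libraries 1 and 2. Fold changes below are log2 values, duodenal minus inguinal, with their standard error (n = 4 and 4), and lists are described by the log2 change of their median member. Every gene named below as higher or lower held in libraries 3 and 4 unless the text says otherwise.

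**Figure D2:**
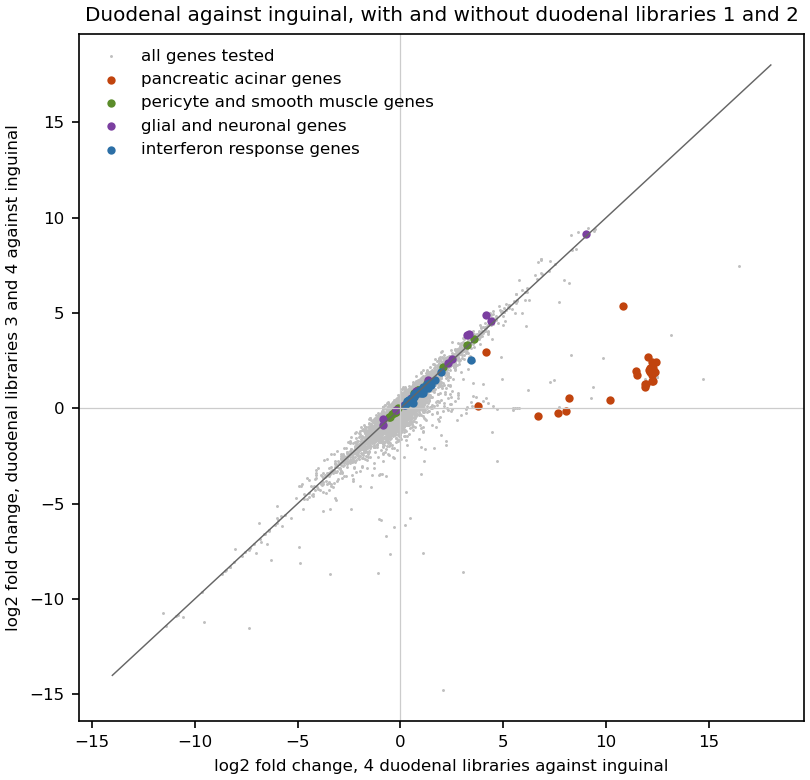
Each point is a gene, with its log2 fold change of 4 duodenal libraries against 4 inguinal ones on the x axis and of duodenal libraries 3 and 4 alone on the y axis, and the line marks equal values. Pancreatic acinar genes leave the line (median 11.92 on x, 1.77 on y), whereas glial (1.83 and 1.93) and interferon response genes (0.94 and 0.81) stay near it.

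Pancreatic enzymes made up the largest positive fold changes and nearly all of them came from libraries 1 and 2. All 25 tested acinar genes were called higher in duodenal nodes, and 3 held: Rnase1, Gp2 and Ctrc. The pattern is shown by Cpa1, a carboxypeptidase of pancreatic juice, at 1981, 1146, 0.415 and 0.964 CPM in duodenal libraries 1 to 4 against 0.123 to 0.189 CPM in inguinal nodes, and its adjusted p without libraries 1 and 2 was 0.196 (edgeR). Libraries 3 and 4 lay above the inguinal range even there, although far under libraries 1 and 2. Amy2a5, an amylase, was at 8524, 3852, 2.13 and 6.53 CPM against 0.634 to 1.35 CPM. The copies Amy2a2, Amy2a3 and Amy2a4 had identical values in all libraries (6573, 3450, 1.07 and 1.65 CPM in duodenal nodes), so their reads cannot be assigned to one copy. Amy2a1 differed from them in standing at 0.88 CPM in duodenal library 1 and 1058 CPM in library 2, with 0 in 3 inguinal libraries. Reg3b and the trypsin inhibitor gene Spink1, at 63.3 and 80.4 CPM in library 1, were at no more than 0.0508 CPM in libraries 3 and 4. Amylase copies, Reg3b and Spink1 are the 6 largest fold changes that did not hold, and no fold change is given for genes so close to 0 in the inguinal group. Klk1, a kallikrein, lost its difference altogether: it was at 429, 320, 15.2 and 15.8 CPM against 12.7 to 16.9 CPM, so libraries 3 and 4 sat within the inguinal range. The keratins of simple epithelia followed the same libraries, Krt8 at 8.94, 5.65, 0.517 and 0.786 CPM against 0.666 to 0.771 CPM and Krt18 at 7.85, 5.05, 0.424 and 0.375 CPM against 0.237 to 0.399 CPM. Other members of their list did hold: of 17 tested intestinal epithelial genes 10 were higher (7 holding) and 1 lower (1 holding).

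The 3 acinar genes that held had a small remainder in libraries 3 and 4. Gp2 (ENSMUSG00000030954), a membrane glycoprotein of zymogen granules that M cells also make, was at 252, 169, 2.17 and 2.77 CPM in duodenal libraries and at 0.0486 to 0.0711 CPM in inguinal ones. Its log2 fold change was 10.82 ± 1.39 with all libraries, 5.39 without libraries 1 and 2 and 9.94 without library 1. Ctrc, a chymotrypsin, was at 30.9, 14.3, 5.44 and 6.76 CPM against 0.686 to 0.859 CPM, with log2 changes of 4.18 ± 0.39, 2.94 without both libraries and 3.48 without library 1. For Rnase1 the values were 785, 596, 0.385 and 0.690 CPM against 0.0766 to 0.0918 CPM, a log2 change of 12.01 ± 1.95 that fell to 2.68 without libraries 1 and 2 and to 11.21 without library 1. At the other gut nodes these genes averaged 2.30 ± 0.53 CPM (Gp2), 5.12 ± 1.62 CPM (Ctrc) and 0.666 ± 0.493 CPM (Rnase1; SD, n = 12). Duodenal libraries 3 and 4 were thus within 1 SD of those means for Rnase1 and Gp2 (n = 12). The other gut libraries were not alike in acinar transcripts. Their acinar sum was 31.4 to 170.8 CPM in jejunal, 30.3 to 33.5 CPM in ileal and 27.2 to 31.7 CPM in ceco-colonic libraries. Under limma-voom, Rnase1 (limma adjusted p = 0.34) and Gp2 (limma adjusted p = 0.12) were not called with all libraries, as was true of Cpa1, the amylases, Reg3b, Spink1, Krt8 and Krt18.

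Regional transcription factors of the mesenchyme, 26 of them tested, differed in both directions: 11 were higher in duodenal nodes, all 11 holding, 8 were lower, 6 holding, and 7 were not called. Nkx2-3 (ENSMUSG00000044220), the homeobox factor of gut and spleen mesenchyme, was at 23.4, 23.5, 21.5 and 18.1 CPM in duodenal libraries and at 0.0130 to 0.0486 CPM in inguinal ones, a log2 fold change of 9.41 ± 0.18 (edgeR adjusted p = 6.58e-18). Duodenal libraries with and without acinar transcripts were alike for it. Tcf21, a basic helix-loop-helix factor of visceral mesenchyme, stood at 1.34, 2.01, 2.88 and 1.27 CPM and at 0 to 0.0388 CPM, a log2 change of 6.88 ± 0.44, or 7.49 without inguinal library 4. Hand2 and Isl1, which act in gut mesenchyme and in autonomic neurons, were higher by 6.05 ± 0.49 and 5.89 ± 0.64. Both were highest in the libraries rich in smooth muscle and glial transcripts, Hand2 at 1.41, 4.52, 4.69 and 1.58 CPM and Isl1 at 0.627, 1.47, 2.49 and 1.02 CPM. Without duodenal libraries 2 and 3 their log2 changes were 5.02 and 5.13. Wt1, a factor of mesothelium and of visceral stroma, was at 0.748, 1.25, 1.78 and 1.06 CPM against 0.0775 to 0.173 CPM, a log2 change of 3.27 ± 0.27. It belongs to the mesothelial list, not to the regional factors. Of the 12 tested mesothelial genes 4 were higher (3 holding), 1 was lower (0 holding) and 7 were not called. The median log2 change of that list was 0.77, and 0.11 without libraries 1 and 2.

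In the other direction lay factors of body wall and limb. Tbx15 was at 12.1, 10.9, 15.1 and 14.5 CPM in inguinal libraries and at 0.0690 to 0.183 CPM in duodenal ones, a log2 change of -6.62 ± 0.30 (edgeR adjusted p = 4.15e-12). En1, which patterns ventral ectoderm and dermis, was at 1.21 to 1.82 CPM against 0.0115 to 0.0304 CPM, a log2 change of -5.98 ± 0.44. Emx2, a homeobox gene of limb girdle and urogenital tissue, was at 1.72 to 2.001 CPM in inguinal nodes and at 0, 0, 0.0889 and 0.0101 CPM in duodenal ones. Its log2 change of -6.02 ± 0.72 was -8.80 without duodenal library 3, so its size rests on a few reads. Tbx18 (-2.999 ± 0.27, and -3.90 without duodenal libraries 2 and 3) and the limb mesenchyme factor Prrx1 (-1.25 ± 0.09) differed less, Prrx1 being at 23.4 to 34.1 CPM in duodenal nodes and 63.8 to 74.6 CPM in inguinal ones.

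Hox genes differed by their place in the clusters. Of 9 tested posterior Hox genes 7 were lower in duodenal nodes, all 7 holding, and none was higher. Of 8 central Hox genes 3 were lower (2 holding), and of 14 anterior ones 4 were higher (4 holding) and 2 lower (1 holding). Hoxc10 (ENSMUSG00000022484) was at 6.39, 6.53, 7.06 and 7.13 CPM in inguinal libraries and at 0.0173, 0, 0.0720 and 0.00507 CPM in duodenal ones, a log2 change of -8.03 ± 0.52 that was -9.81 without duodenal library 3. Hoxa10 was at 0.0710 to 0.140 CPM against 1.73 to 1.98 CPM (-4.22 ± 0.20), Hoxc9 at 0.535 to 0.754 CPM against 6.15 to 7.22 CPM (-3.31 ± 0.13) and Hoxa9 at 0.293 to 0.457 CPM against 1.98 to 2.95 CPM (-2.62 ± 0.16). None of these ranges overlapped. Smaller decreases were measured for Hoxd10 (-1.21 ± 0.17), Hoxb9 (-1.14 ± 0.12) and Hoxd9 (-0.95 ± 0.12). Anterior genes with the opposite sign were Hoxc4, at 7.15 to 8.74 CPM against 3.25 to 3.48 CPM (1.22 ± 0.09), and Hoxa4, at 1.67 to 2.22 CPM against 0.694 to 1.05 CPM (1.11 ± 0.14).

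**Figure D3:**
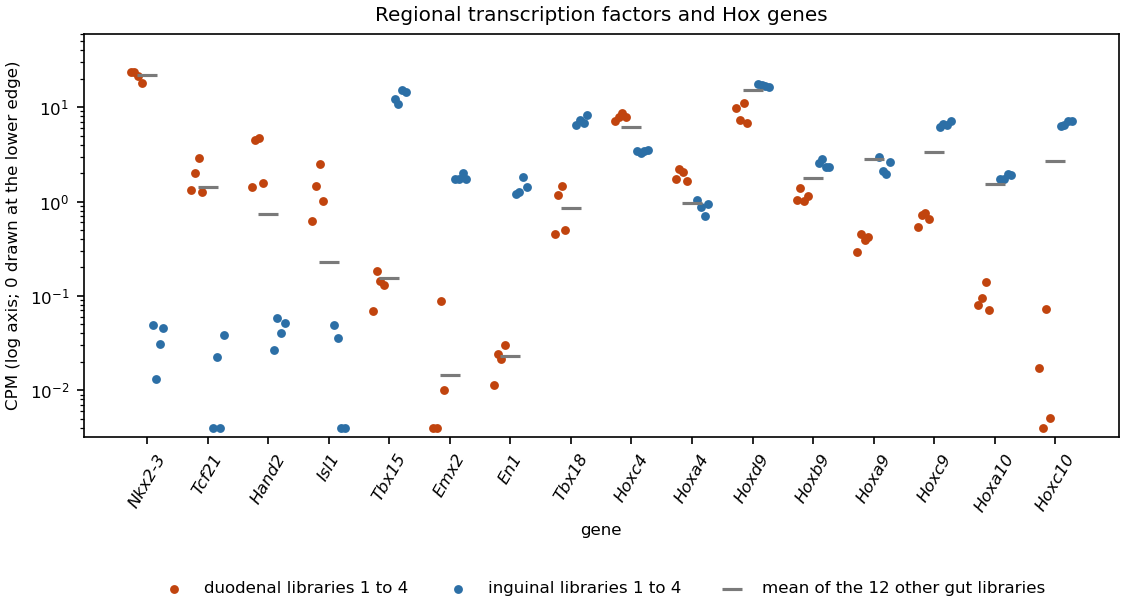
CPM (log axis) of regional transcription factors and Hox genes, with 1 point per library for duodenal and inguinal nodes and a dash at the mean of the 12 other gut libraries. Nkx2-3 is at 18.1 to 23.5 CPM in duodenal and under 0.05 CPM in inguinal libraries, and Tbx15 and Hoxc10 have the reverse order.

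Counts over the gene lists follow, each read against the 13.2% and 12.1% of all genes called in each direction. Besides the acinar genes, lists with many members called were interferon response genes (31 of 34 higher), sterol synthesis genes (16 of 20 higher), T-zone reticular cell genes (10 of 12 higher), glial and neuronal genes (9 of 14 higher), posterior Hox genes (7 of 9 lower), mast cell genes (10 of 16 lower) and type 2 dendritic cell genes (9 of 15 lower). Others lay close to the background: of 23 blood endothelial genes 1 was higher and 4 lower, of 22 complement genes 4 and 2, and of 18 circadian clock genes 3 and 2. Of 20 cell division genes 6 were called higher (DESeq2 7, limma-voom 5) and 0 held, although 7 were higher at an unadjusted p under 0.05 in edgeR without libraries 1 and 2 and the median log2 change was 0.20 with and 0.22 without these libraries. The posterior and central Hox, interferon response, sterol synthesis, killer cell and T-zone lists had 0 members called in the direction opposite to their other calls, and there 0 members were past an unadjusted p of 0.05 in edgeR or called by DESeq2 or limma-voom.

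**Figure D4:**
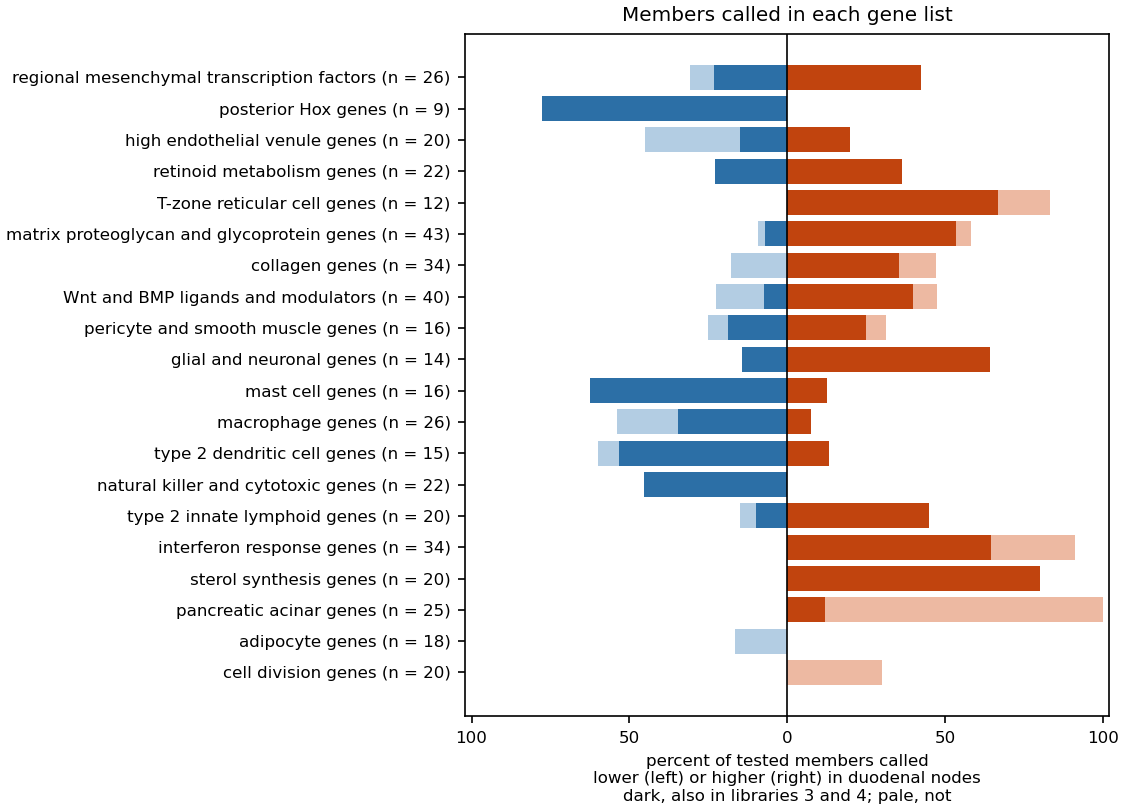
Percent of each list's tested members (n beside its name) called higher (right) or lower (left) in duodenal than inguinal nodes, in dark where the call held in duodenal libraries 3 and 4 and in pale where it did not. Acinar genes are pale except for 3 of 25, while the sterol synthesis bar (16 of 20 higher) and the mast cell bar (10 of 16 lower) are dark throughout.

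Listed genes of high endothelial venules, the vessels by which lymphocytes enter a node, were called in both directions. Of 20 venule genes 4 were higher in duodenal nodes (4 holding) and 9 lower (3 holding), with a median log2 fold change of -0.26. Madcam1 (ENSMUSG00000020310), the mucosal addressin, was at 104, 65.7, 72.8 and 47.7 CPM in duodenal libraries and at 3.52, 3.85, 3.67 and 4.05 CPM in inguinal ones. Its log2 fold change was 4.26 ± 0.21 (edgeR adjusted p = 1.10e-11) and the groups were far apart. Enzymes and scaffolds of the peripheral node addressin ran the other way or did not differ by the test. Gcnt1, which builds core branches of its sugar chains, was at 40.9 to 47.3 CPM against 66.5 to 75.2 CPM (-0.69 ± 0.07). Chst4, the sulfotransferase of the L-selectin ligand, was at 10.6 to 15.1 CPM against 24.6 to 39.3 CPM, and its call (-1.29 ± 0.31, edgeR adjusted p = 0.00433) was not made without libraries 1 and 2 (-1.20, adjusted p = 0.051). Glycam1, which carries that sugar, was at 372 to 424 CPM against 549 to 714 CPM without overlap, yet its adjusted p was 0.171 (edgeR, -0.61 ± 0.32), and 0.0012 when the duodenal and inguinal libraries alone were fitted. Enpp2, which makes lysophosphatidic acid at these vessels, was lower (-0.42 ± 0.10) and Parm1, a mucin-like membrane protein, was higher (0.66 ± 0.09).

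The genes that make, store and sense retinoic acid were divided between the sites. Of 22 tested retinoid genes 8 were higher in duodenal nodes and 5 lower, and all of them held. The producing enzyme Aldh1a2 (ENSMUSG00000013584) was at 128, 147, 130 and 181 CPM in duodenal libraries and at 22.0, 16.1, 20.9 and 18.6 CPM in inguinal ones, a log2 change of 2.92 ± 0.16 (edgeR adjusted p = 4.21e-11). Lrat, which stores retinol as esters, was at 16.3 to 23.9 CPM against 2.54 to 3.47 CPM (2.69 ± 0.20). Stra6, a retinol channel, was higher by 1.87 ± 0.22, and Dhrs3, a retinal reductase induced by retinoic acid, by 1.12 ± 0.09. The receptor gene Rarb, itself a retinoic acid target, was at 1.82 to 3.06 CPM against 0.437 to 0.808 CPM (1.96 ± 0.22). Aldh1a1 was at 16.8, 28.5, 36.9 and 16.4 CPM against 6.03 to 9.20 CPM, a log2 change of 1.61 ± 0.25, its 2 highest libraries being those rich in muscle transcripts. Lower in duodenal nodes were Cyp26b1, which degrades retinoic acid, at 24.3, 19.8, 32.8 and 56.3 CPM against 79.2 to 133 CPM (-1.70 ± 0.35, and -2.29 without libraries 3 and 4), and the receptor gene Rara (-0.61 ± 0.05).

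Listed genes of T-zone reticular cells, which guide lymphocytes and dendritic cells, were mostly higher in duodenal nodes. Of 12 T-zone genes 10 were higher, 8 of them holding, none was lower, and the median log2 change was 0.78. The chemokine gene Ccl21a was at 2576, 2228, 2405 and 2510 CPM in duodenal libraries and at 823, 1216, 1559 and 1215 CPM in inguinal ones (1.01 ± 0.21). Ccl21 copies are near identical in sequence, so their shares are uncertain. Grem1, a BMP antagonist of reticular cells, was at 69.1 to 96.0 CPM against 27.8 to 42.6 CPM (1.11 ± 0.17), and the cytokine gene Tnfsf11, which instructs node organisers, at 33.1 to 48.5 CPM against 19.6 to 23.3 CPM (0.87 ± 0.11). The follicular list was split evenly, with 4 of 12 higher and 4 lower, all holding. Cxcl13, the attractant of B-cell follicles, was at 49.1, 27.8, 42.0 and 25.6 CPM in duodenal nodes and at 191, 235, 174 and 182 CPM in inguinal ones (-2.44 ± 0.30). Cxcl14, a chemokine of epithelia and stroma, went the opposite way, at 13.2 to 19.2 CPM against 0.319 to 0.795 CPM (4.95 ± 0.24). The alarmin gene Il33 (0.88 ± 0.11) and Il6 (2.20 ± 0.23), both made by reticular cells, were higher too. Cxcl14, Il33 and Il6 belong to the medullary reticular cell list, which was called in both directions. Of its 14 tested genes 6 were higher (5 holding) and 4 lower (2 holding), with a median log2 change of -0.05. Il6 was at 2.61 CPM in duodenal library 1 and at 1.39 to 1.54 CPM in the other duodenal libraries, all above the inguinal 0.322 to 0.448 CPM.

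Matrix genes and Wnt modulators were called in both directions, with most of the calls higher in duodenal nodes. Among 43 tested proteoglycan and glycoprotein genes 25 were higher (23 holding) and 4 lower (3 holding), and among 34 collagen genes 16 were higher (12 holding) and 6 lower (0 holding). Without the muscle-rich duodenal libraries 2 and 3, the proteoglycan and glycoprotein list had 14 higher and 5 lower. The collagen list then had 9 higher and 3 lower. Over all genes that fit called 3139 higher and 2848 lower, against 3868 and 3561 with all libraries. Cilp, a cartilage and fibroblast matrix protein, was at 29.4, 44.8, 38.8 and 50.6 CPM against 0.880 to 3.40 CPM (4.26 ± 0.30). Col14a1, a collagen that coats fibrils, was at 152, 175, 221 and 167 CPM against 15.5 to 23.5 CPM (3.14 ± 0.14). Lum, a fibril-spacing proteoglycan, was at 275 to 286 CPM against 29.8 to 68.3 CPM (2.46 ± 0.16). Fibronectin, Fn1, stood at 778 to 1112 CPM against 204 to 321 CPM (1.75 ± 0.14), and Spon1 at 158 to 216 CPM against 42.4 to 61.6 CPM (2.0001 ± 0.12). Thbs2, an antiangiogenic thrombospondin, was an exception, at 21.9 to 28.4 CPM against 46.6 to 54.5 CPM (-0.92 ± 0.09). Of 40 Wnt and BMP ligands and modulators 19 were higher (16 holding) and 9 lower (3 holding). The ligand gene Wnt2b was at 23.2, 26.0, 33.6 and 27.9 CPM against 3.02 to 3.91 CPM (3.02 ± 0.12), and Rspo3, which amplifies Wnt signals, at 11.5 to 15.2 CPM against 2.78 to 3.81 CPM (1.98 ± 0.10). Secreted Wnt antagonists differed by member. Sfrp1 (1.74 ± 0.13), Sfrp4 (2.37 ± 0.22) and Dkk3 (1.67 ± 0.08) were higher, whereas Sfrp2 was lower, at 0.788, 1.25, 1.03 and 0.553 CPM against 15.7, 22.2, 19.1 and 21.5 CPM (-4.43 ± 0.25).

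Some of the largest duodenal folds were in genes that varied with the smooth muscle and glial transcripts. Cnn1, calponin of contractile muscle, was at 0.443, 35.8, 37.3 and 4.41 CPM in duodenal libraries and at 1.11 to 2.17 CPM in inguinal ones. Library 1 was below every inguinal library and the other 3 were above. Its call (3.56 ± 0.83, edgeR adjusted p = 0.00315) held by the rule on libraries 3 and 4 but not without libraries 2 and 3 (0.56, adjusted p = 0.61), nor under limma-voom (2.32, adjusted p = 0.12). Actg2, enteric smooth muscle actin, behaved likewise, at 0.276, 16, 15.4 and 2.45 CPM against 0.722 to 1.20 CPM, with log2 changes of 3.24 ± 0.72, then 0.60 (adjusted p = 0.49) without libraries 2 and 3 and 2.16 (adjusted p = 0.11) under limma-voom. Acta2, the actin of vessels and myofibroblasts, was at 23.4, 353, 366 and 66.1 CPM against 90.1 to 148 CPM and Myh11, smooth muscle myosin, at 45.5, 383, 375 and 111 CPM against 118 to 139 CPM. With all libraries neither passed the test (edgeR adjusted p = 0.234 and 0.110). Without library 1 both were called higher, at 1.22 and 1.21, Myh11 also without library 4 (1.10) and without libraries 1 and 2 (0.95), and without libraries 2 and 3 both were called lower, at -1.32 and -0.68. The direction of these genes therefore depended on the libraries used.

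Of the 16 pericyte and smooth muscle genes 5 were called higher and 4 lower with all libraries, and 0 higher and 9 lower without libraries 2 and 3. Of 14 glial and neuronal genes 9 were higher, all 9 holding, and 2 were lower, and without libraries 2 and 3 the counts were 7 and 2. Sox10, the master factor of peripheral glia, was at 1.42, 10.01, 9.99 and 4.77 CPM against 0.143 to 0.628 CPM, so every duodenal library exceeded every inguinal one. Its log2 change was 4.39 ± 0.76, with 3.32 (adjusted p = 0.0048) without duodenal libraries 2 and 3 and 5.11 without inguinal library 2. Cdh19, a Schwann cell cadherin, gave 4.90 ± 0.69 with all libraries and 3.89 without duodenal libraries 2 and 3, and Ptprz1, a glial phosphatase at 0.408, 10.7, 9.22 and 1.36 CPM against 0.187 to 0.267 CPM, gave 4.65 ± 0.78 and 2.05. Stromal genes with the same order of libraries were Mfap4, a microfibril protein (5.50 ± 0.44, and 4.49), Sfrp5 (5.02 ± 0.90, and 3.81) and Col11a1 (3.76 ± 0.66, and 2.74). Sfrp5 was at 4.04, 21.7, 27.4 and 9.41 CPM against 0.133 to 1.10 CPM, and at 5.98 without inguinal library 2. The part of the muscle and glial transcripts in these stromal differences was not tested.

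Transcripts of mast cells, which reside at barrier sites and store proteases in granules, were lower in duodenal nodes. Of 16 tested mast cell genes 10 were lower, all holding, 2 were higher and the median log2 change was -3.07. The chymase Mcpt4 (ENSMUSG00000061068) was at 16.4, 29.1, 12.7 and 23.6 CPM in inguinal libraries and at 0.161, 0.495, 0.661 and 0.137 CPM in duodenal ones, a log2 change of -5.79 ± 0.56 (edgeR adjusted p = 1.95e-07). Without duodenal libraries 2 and 3, in which it was higher, the log2 change was -7.10. The tryptase Tpsb2 was at 6.29 to 12.6 CPM against 0.0811 to 0.639 CPM (-5.06 ± 0.55, and -5.84 without duodenal library 3), Cma1 at 8.10 to 18.5 CPM against 0.903 to 1.69 CPM (-3.40 ± 0.23) and the carboxypeptidase Cpa3 at 5.12 to 11.1 CPM against 0.685 to 1.05 CPM (-3.20 ± 0.28). Kit, the stem cell factor receptor, also found on innate lymphoid cells, was higher (0.68 ± 0.12). It was at 144, 116, 117 and 120 CPM against 74.7 to 81.4 CPM, above every inguinal library.

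Of 26 macrophage genes 14 were lower in duodenal nodes (9 holding) and 2 higher (2 holding). Timd4 (ENSMUSG00000055546), a receptor for dying cells, was at 42.6, 25.2, 33.7 and 30.6 CPM in duodenal libraries and at 354, 329, 307 and 336 CPM in inguinal ones (-3.33 ± 0.16, edgeR adjusted p = 1.08e-11). Folr2, a folate receptor of resident macrophages, was at 4.07 to 8.76 CPM against 46.3 to 59.3 CPM (-3.19 ± 0.18). The lectins Cd209f (-3.38 ± 0.28) and Cd209b (-1.78 ± 0.17) were lower, Cd209b at 186 to 348 CPM against 798 to 1096 CPM. Hmox1, which breaks down haem, was lower (-1.74 ± 0.21), and inguinal library 4 stood at 353 CPM above the 136 to 166 CPM of the other inguinal libraries. Siglec1, the sialoadhesin of subcapsular macrophages, was at 344, 370, 556 and 471 CPM against 582 to 748 CPM, and its call (-0.60 ± 0.15) did not hold (-0.36, adjusted p = 0.14). Fcna, a soluble lectin of macrophages, had the opposite sign, at 73.0 to 111 CPM against 12.3 to 20.9 CPM (2.52 ± 0.17).

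Type 2 dendritic cell genes were lower in 9 of 15 cases (8 holding) and higher in 2, with a median log2 change of -0.91. Cd207, langerin of epidermal Langerhans cells, was at 0.482 to 1.34 CPM against 7.37 to 11.5 CPM (-3.49 ± 0.42). Mgl2, Clec10a and Cd209a, lectins of dermal dendritic cells, were lower (-2.84 ± 0.20, -2.01 ± 0.12 and -1.86 ± 0.24), Mgl2 being at 4.44 to 9.13 CPM against 38.7 to 51.0 CPM. Clec4a4, a lectin of intestinal and splenic dendritic cells, was higher instead, at 3.55 to 4.59 CPM against 0.834 to 1.01 CPM (2.12 ± 0.17). Other dendritic cell lists were called both ways, with 2 higher and 2 lower of 12 type 1 genes, 5 and 6 of 16 mature genes and 5 and 4 of 12 plasmacytoid genes.

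Of 20 genes of type 2 innate lymphoid cells 9 were higher in duodenal nodes (9 holding), 3 were lower (2 holding) and 8 were not called. Arg1 (ENSMUSG00000019987), an arginase of these cells, was at 12.6, 13.3, 10.2 and 14.5 CPM in duodenal libraries and at 0.631, 0.878, 0.761 and 0.678 CPM in inguinal ones (4.09 ± 0.17, edgeR adjusted p = 1.39e-12). Nmur1, the neuromedin U receptor, was at 4.12 to 7.46 CPM against 0.460 to 0.872 CPM (3.05 ± 0.22). The alarmin receptors Il1rl1, at 25.0 to 42.0 CPM against 6.78 to 8.59 CPM, and Il17rb, at 51.9 to 83.7 CPM against 14.6 to 20.2 CPM, were higher by 2.16 ± 0.15 and 2.02 ± 0.13. Klrg1, found on mature type 2 cells and on killer cells, was higher by 1.86 ± 0.18, Il4 by 1.18 ± 0.16 and the lineage factor Gata3 by 0.65 ± 0.10. Ptgdr2, the prostaglandin D2 receptor, was lower, at 0.229 to 0.288 CPM against 3.08 to 4.23 CPM (-3.78 ± 0.22). Among 17 type 3 genes 7 were higher (5 holding) and 2 lower (2 holding), with Cxcr5, the receptor for the follicular chemokine, higher by 1.61 ± 0.26. Of 22 killer cell genes 10 were lower, all 10 holding, 12 were not called and none was higher. Of these 10 genes 1 reached 2-fold. The others were smaller, such as the perforin gene Prf1 (-0.82 ± 0.13), Ccl5 (-0.96 ± 0.11) and Ncr1 (-0.37 ± 0.09, and -0.25 with adjusted p = 0.096 without libraries 3 and 4). Gzmc, a granzyme of tissue-resident killer cells, was apart at 1.98 to 3.08 CPM against 33.4 to 43.2 CPM (-3.81 ± 0.17).

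Chemokines of inflammation were split, with 7 of 21 higher (4 holding) and 6 lower (6 holding). Ccl8 (ENSMUSG00000009185), a monocyte and T-cell attractant of skin macrophages, was at 3.20, 2.05, 2.01 and 1.69 CPM in duodenal libraries and at 244, 286, 191 and 248 CPM in inguinal ones, a log2 change of -6.76 ± 0.33 (edgeR adjusted p = 9.58e-12). Ccl12 (-1.55 ± 0.19) and the membrane-bound Cx3cl1 (-0.82 ± 0.08) were lower and the neutrophil attractant Cxcl5, at 4.002 to 6.14 CPM against 0.761 to 1.70 CPM, was higher (2.04 ± 0.22). Ccr10, a receptor of skin-homing cells, was at 0.719 to 0.928 CPM against 8.99 to 13.2 CPM (-3.77 ± 0.17). Cx3cl1 and Ccr10 belong to the list of homeostatic chemokines and their receptors, which was called in both directions. Of its 21 tested genes 7 were higher (5 holding) and 4 lower (4 holding).

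Interferon response genes were higher in duodenal nodes, most of them in libraries 3 and 4 as well. Of 34 tested genes 31 were higher in duodenal nodes, 22 holding, and none was lower, with a median log2 fold change of 0.94, or 0.81 without libraries 1 and 2. Type I interferon acts through a transcription complex that binds a repeated GAAA element in the promoters of such genes. For the 4 genes shown here, chosen because the motif is present, the 250 bases upstream of the annotated start are printed in RefSeq's reading direction (GRCm38.p6), with capitals at matches to GAAA, any 2 bases and GAAA on either strand, overlapping matches merged. The windows are chr4:156200819-156201068 (minus strand) for Isg15, chr12:26456453-26456702 (minus strand) for Rsad2, chr19:34640639-34640888 (plus strand) for Ifit1 and chr5:92348890-92349139 (minus strand) for Cxcl10.
Isg15: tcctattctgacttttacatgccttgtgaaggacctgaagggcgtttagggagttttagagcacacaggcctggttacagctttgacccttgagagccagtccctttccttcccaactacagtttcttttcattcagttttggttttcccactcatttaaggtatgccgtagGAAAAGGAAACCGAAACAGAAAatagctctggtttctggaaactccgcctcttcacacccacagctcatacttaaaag
Rsad2: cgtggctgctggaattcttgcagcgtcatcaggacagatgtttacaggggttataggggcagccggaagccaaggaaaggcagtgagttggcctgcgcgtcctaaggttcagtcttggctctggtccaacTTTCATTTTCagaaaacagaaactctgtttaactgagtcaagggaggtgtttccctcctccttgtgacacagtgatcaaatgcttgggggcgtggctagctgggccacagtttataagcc
Ifit1: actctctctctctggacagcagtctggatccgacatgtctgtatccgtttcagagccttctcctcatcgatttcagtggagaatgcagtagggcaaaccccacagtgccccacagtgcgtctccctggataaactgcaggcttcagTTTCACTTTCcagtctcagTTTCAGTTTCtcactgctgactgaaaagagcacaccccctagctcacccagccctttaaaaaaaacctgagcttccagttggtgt
Cxcl10: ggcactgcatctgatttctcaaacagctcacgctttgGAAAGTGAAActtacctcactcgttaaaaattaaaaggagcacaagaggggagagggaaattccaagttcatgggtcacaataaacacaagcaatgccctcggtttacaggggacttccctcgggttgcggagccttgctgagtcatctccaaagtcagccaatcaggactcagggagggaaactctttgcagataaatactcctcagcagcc

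Of the 31 called genes 21 had a RefSeq promoter, and 12 of these 21 (57.1%) had the motif in the window from 250 bases before to 50 after the start. The motif was found for 1079 of all 27025 genes with a promoter (3.99%), and for 2 of the 3 list genes that were tested and not called. The match describes the letters only, and the window of Oasl1, which was called higher, held none.

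The levels of these genes were as follows. Isg15 (ENSMUSG00000035692), a ubiquitin-like modifier, was at 163, 110, 113 and 105.2 CPM in duodenal libraries and at 32.1, 52.9, 27.6 and 41.9 CPM in inguinal ones (1.67 ± 0.25, edgeR adjusted p = 4.17e-05). Rsad2, viperin, was at 131, 89.3, 81.7 and 82.3 CPM against 27.8 to 40.6 CPM (1.47 ± 0.24), and Ifit1, a sensor of viral RNA caps, at 122, 80.6, 72.6 and 69.5 CPM against 25.1 to 42.4 CPM (1.35 ± 0.26). In each of these, duodenal library 1 was the highest and the 4 duodenal libraries lay above the 4 inguinal ones. Cxcl10, a chemokine induced by interferons, was at 152, 84.8, 96.3 and 100 CPM against 30.1 to 52.2 CPM (1.28 ± 0.21). Oasl1 was at 76.5 to 93.8 CPM against 15.2 to 29.3 CPM (1.96 ± 0.24) and Ifi44 at 58.3 to 75.2 CPM against 18.7 to 30.4 CPM (1.37 ± 0.21). Ifnb1, an interferon gene that lies upstream of them, was near the limit of detection, at 0.184, 0.0673, 0.0508 and 0.0355 CPM against 0.0054 to 0.0102 CPM (3.44 ± 0.65, and 2.75 without duodenal library 1). Of 19 tested GTPases induced by interferon gamma 7 were higher, 2 holding, and 1 was lower.

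Cholesterol synthesis genes were higher in duodenal nodes and every call held. Of 20 tested genes 16 were higher in duodenal nodes, all 16 holding, none was lower, and the median log2 change was 0.60 (0.69 without libraries 1 and 2). Sqle (ENSMUSG00000022351), squalene epoxidase, was at 27.7, 28.3, 33.2 and 31.7 CPM in duodenal libraries and at 12.1, 11.2, 10.5 and 9.53 CPM in inguinal ones (1.48 ± 0.09, edgeR adjusted p = 3.27e-10). Idi1 (1.29 ± 0.15) and Hmgcs1, an entry enzyme (0.91 ± 0.09), were higher as well, with no overlap between sites.

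Outside the lists, the naming rule gave leading genes at both ends. Glp2r, the receptor for an intestinal growth peptide, was at 13.1, 16.4, 13.1 and 12.4 CPM in duodenal libraries against 0.523 to 0.767 CPM (4.52 ± 0.19), and Lrrn2, a leucine-rich repeat protein of neural and stromal cells, at 10.3 to 15.5 CPM against 0.478 to 0.578 CPM (4.64 ± 0.15). On the inguinal side, Mup22, of the major urinary protein family, was at 12.2 to 18.6 CPM and, in duodenal nodes, at 0 except for 0.0169 CPM in library 3. Its log2 change of -11.56 ± 0.49 became -14.76 without library 3, and reads of this family of near-identical genes may be shared between copies. Bpifb3, a secreted lipid-binding protein, was at 8.21 to 14.3 CPM against at most 0.0173 CPM (-10.54 ± 0.46, and -11.41 without duodenal library 1), and its neighbour in name Bpifb2 at 5.90 to 11.1 CPM against 0.0230 to 0.0529 CPM (-7.68 ± 0.28). Cyp2f2, a cytochrome P450, was at 25.9 to 38.5 CPM against 0.299 to 0.788 CPM (-5.94 ± 0.42). Cd300ld4, a myeloid receptor, was at 106 to 126 CPM against 3.86 to 5.53 CPM (-4.67 ± 0.15), and the olfactory receptor gene Or6f2 at 7.96 to 10.6 CPM against 0.288 to 0.587 CPM (-4.54 ± 0.22).

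Duodenal nodes were then set against the other gut nodes, taken as the mean of the jejunal, ileal and ceco-colonic position means. Of 29411 genes, 2035 (6.92%) were higher and 2146 (7.3%) lower in duodenal nodes, and of these 654 and 337 were also called without duodenal libraries 1 and 2. Both comparisons use the same duodenal libraries. Values are therefore given side by side, with no overlap counted. Of 34 interferon response genes 0 were called against the other gut nodes by edgeR, DESeq2 or limma-voom, and 1 was higher at an unadjusted p under 0.05 in edgeR. Posterior Hox genes were again lower (8 of 9, all 8 also called without libraries 1 and 2). Pericyte and smooth muscle genes (10 of 16) and glial and neuronal genes (11 of 14) were called higher than at the other gut positions. Of these calls, 9 and 10 were also made without duodenal libraries 1 and 2. At the other gut positions the sums of these lists were 1158 to 1607 and 152 to 228 CPM. Without the muscle-rich duodenal libraries 2 and 3, 1 of 16 and 4 of 14 were called higher. Over all genes that fit called 753 higher than in the other gut nodes, against 2035 with all libraries. Duodenal libraries 1 and 4 were at 1119 and 1398 CPM for the muscle sum and at 188 and 231 CPM for the glial sum. Sox10 was higher than in the other gut nodes by 3.04, and by 1.97 (edgeR adjusted p = 0.064) without duodenal libraries 2 and 3, and Acta2 by 2.49 and 0.33 (adjusted p = 0.42).

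Tdrd9, a helicase known from germ cells, had the highest level in duodenal nodes and fell along the gut, with 5.60 ± 0.44 CPM there, 2.84 ± 0.69 CPM in jejunal, 1.85 ± 0.23 CPM in ileal and 0.707 ± 0.078 CPM in ceco-colonic nodes (SD, n = 4 each), and 3.02 ± 0.59 CPM in inguinal nodes. Its log2 change was 1.85 ± 0.12 against the other gut nodes (edgeR adjusted p = 1.93e-08) and 0.89 ± 0.16 against inguinal nodes. Fam184b had the same order in the gut, from 17.1 ± 0.52 CPM in duodenal to 4.52 ± 0.21 CPM in ceco-colonic nodes. Its log2 change was 1.55 ± 0.15 against the mean of the other gut positions. It did not pass the test against inguinal nodes (0.24 ± 0.19, edgeR adjusted p = 0.410). Npy1r, a neuropeptide Y receptor, and Ptn, a growth factor of stroma, were higher than at other gut positions (1.23 ± 0.11 and 1.17 ± 0.10) and lower than in inguinal nodes (-0.56 ± 0.14 and -0.78 ± 0.13). Duodenal nodes thus lay between the other gut nodes and the inguinal node for this pair. Glp2r was at 13.7 ± 1.8 CPM in duodenal and 2.26 ± 0.52 CPM in ceco-colonic nodes. Its log2 change against the mean of the other gut positions was 1.35 ± 0.13. Bc1, a neuronal small RNA, was at 76.6 ± 19 CPM against 22.5 to 32.1 CPM as means of the other gut positions (1.53 ± 0.17), with duodenal library 4 at 49.0 CPM and the other 3 at 82.3 to 87.7 CPM. Mylk4, a myosin kinase, and P2rx1, the ATP receptor of smooth muscle, headed the list at 4.16 ± 0.48 and 2.72 ± 0.23. Mylk4 was at 0.753, 14.3, 16.99 and 0.654 CPM in duodenal libraries, so its lead rested on the muscle-rich libraries 2 and 3, and the log2 change was 0.63 without them and 3.53 without library 3 alone. Against inguinal nodes, Mylk4 stood at 4.21 ± 0.73, at 0.67 without libraries 2 and 3 and at 3.57 without library 3. P2rx1 was at 4.44, 15.2, 11.6 and 4.47 CPM, with a log2 change of 1.73 without libraries 2 and 3, and its log2 change against inguinal nodes was 2.18 ± 0.32 (1.18 without them).

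Among the genes lower in duodenal than in the other gut nodes, Il22ra2, a decoy receptor for interleukin 22, was at 2.03 ± 0.86 CPM in duodenal, 4.65 ± 0.75 CPM in jejunal, 13.1 ± 2.0 CPM in ileal and 18.3 ± 8.0 CPM in ceco-colonic nodes (SD, n = 4 each), a log2 change of -2.36 ± 0.29 (edgeR adjusted p = 2.32e-05). Against inguinal nodes it did not pass the test (0.21 ± 0.31, edgeR adjusted p = 0.676). Its ligand gene Il22 was at 0.0978, 0.0625, 0.0212 and 0.340 CPM in duodenal nodes against 1.79 to 2.71 CPM as means of the other gut positions, a log2 change of -4.10 ± 0.63, and -5.22 without duodenal library 4. In inguinal nodes Il22 was at 0 to 0.0585 CPM, and the difference of 2.10 ± 0.91 missed the threshold (edgeR adjusted p = 0.0986), though it passed without duodenal library 3 (2.49, adjusted p = 0.045), without libraries 2 and 3 (2.89, adjusted p = 0.03) and under DESeq2 (2.31, adjusted p = 0.035). Coch, a matrix protein of follicular stroma, was at 4.07 ± 0.92 CPM against 29.0 ± 3.9 CPM in ileal nodes. Tnfsf4, the OX40 ligand, was at 1.40 ± 0.38 CPM against 12.5 ± 2.4 CPM in ceco-colonic nodes. Against the mean of the other gut positions their log2 changes were -2.09 ± 0.22 and -1.91 ± 0.20. Against inguinal nodes both were lower too (-1.59 ± 0.24 and -1.02 ± 0.23). The Wnt antagonists Frzb (-2.08 ± 0.18) and Sfrp4 (-1.27 ± 0.18), C1qtnf5 (-1.16 ± 0.13), Ms4a8a (-1.03 ± 0.09) and the macrophage protein gene Cd5l (-0.89 ± 0.14) were lower as well. Frzb did not pass the test against inguinal nodes (-0.54 ± 0.20, edgeR adjusted p = 0.0544) but did so under 6 alternatives, at -0.53 to -0.75, among them the replicate block (adjusted p = 0.0028), DESeq2 (0.025) and the fit without duodenal library 2 (-0.70, adjusted p = 0.018). Sfrp4 was lower than in the other gut nodes and higher than in the inguinal node (2.37 ± 0.22), passing both tests.

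**Figure D5:**
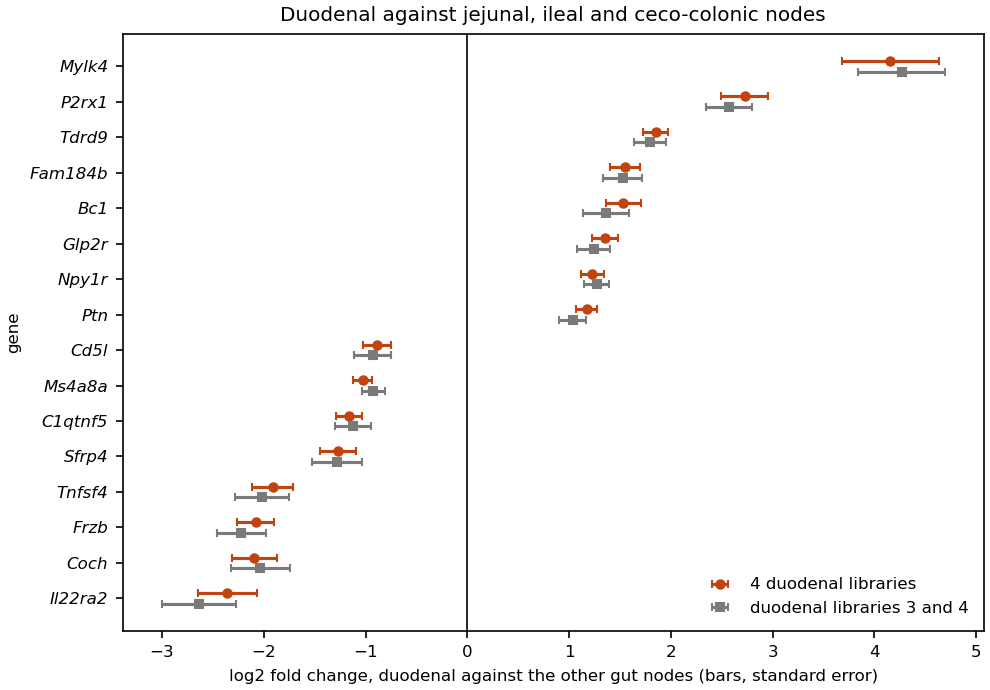
Log2 fold change (x axis; bars, standard error) of duodenal nodes against the mean of jejunal, ileal and ceco-colonic nodes for the 8 highest and 8 lowest genes of the naming rule. Mylk4 leads at 4.16 and Il22ra2 is lowest at -2.36.

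Several genes that differed from the inguinal node also changed along the gut. Hoxc10 was at 0.0236 ± 0.033 CPM in duodenal nodes, then 0.154 ± 0.084 CPM in jejunal, 1.17 ± 0.45 CPM in ileal and 6.73 ± 0.47 CPM in ceco-colonic nodes (SD, n = 4 each), the last being close to the inguinal 6.78 ± 0.37 CPM. Its log2 change against the other gut nodes was -5.35 ± 0.49, and -7.13 without duodenal library 3. Hoxa10 (-3.17 ± 0.18), Hoxa9 (-2.51 ± 0.14) and Hoxc9 (-2.18 ± 0.11) were lower likewise, and Hoxd11 was lower (-1.96 ± 0.36, and -2.62 without libraries 1 and 2) with no call against inguinal nodes (-0.48 ± 0.44, edgeR adjusted p = 0.470). Ccl8 was at 2.24 ± 0.66, 2.68 ± 0.40, 4.55 ± 1.7 and 41.6 ± 13 CPM from duodenal to ceco-colonic nodes, and the inguinal level was 242 ± 39 CPM. Gzmc had that order as well, from 2.61 ± 0.49 to 20.03 ± 3.6 CPM in the gut and 36.5 ± 4.5 CPM in inguinal nodes. In the opposite order, Arg1 went from 12.6 ± 1.8 to 3.52 ± 0.41 CPM, Rspo3 from 12.8 ± 1.7 to 4.25 ± 0.17 CPM and Isl1 from 1.40 ± 0.80 to 0.0569 ± 0.038 CPM. Neighbouring positions overlapped within their SD for Ccl8 (duodenal and jejunal) and for Gzmc (duodenal and jejunal). For Sqle the duodenal mean was 30.2 ± 2.7 CPM and the jejunal 28.7 ± 0.45 CPM, and it passed the test against the mean of the other gut positions (0.41 ± 0.07).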

How the data were processed

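Per the labels' protocols, whole-node RNA was extracted by PicoPure and made into NEBNext poly(A) libraries. The deposited gene table holds expected counts, estimated counts per gene for 56258 genes, and the deposited transcript tables hold estimated counts and TPM. The submitters' processing notes name the tools edgeR, kallisto and limma and the builds mm10 and GRCm39. What each did, its version and the strandedness of counting were not given in the sources used here. Gene values of the authors matched TPM scaled by length within 0.001 (log2) for 99.67% of values over 12483 genes, so they are not raw reads.

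Estimates were rounded and fitted in edgeR 4.0.16 (R 4.3.3) for all 20 libraries with 1 mean per position, after filterByExpr (minimum count 10) and TMM scaling. Calls used edgeR's quasi-likelihood test with a Benjamini-Hochberg adjusted p under 0.05 over 29411 genes. The procedure was tested on simulated data. Alternatives were DESeq2 1.42.0, limma-voom (limma 3.58.1), RLE scaling, no filter, transcript sums, fewer libraries, an adipocyte covariate and acinar genes removed before scaling. Leaving out duodenal libraries 2 and 3 was chosen after seeing the data.

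Named genes were the 12 highest and 12 lowest that held, with at least 5 CPM and no overlap, the 8 highest and 8 lowest against the other gut nodes, the 6 highest that did not hold, and members of the lists with their counts. Some list members are counted but not reported here by name. Members and lists were chosen with earlier results of these data known. Genome coordinates are of RefSeq promoters only.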

Additional observations from a re-analysis of the deposited data

Results flagged for a closer look

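For 24 of 292 groups of 4 libraries (146 named genes at 2 sites), 1 library stood far from the other 3, by a criterion that chance meets in about 1 in 20 groups. Duodenal library 1 was that library for Il6 (2.61 CPM against 1.39 to 1.54 CPM in the other 3), Kit (144 against 116 to 120), Ccl5 (580 against 416 to 442), the interferon response genes Isg15 (163 against 105.2 to 113) and Rsad2 (131 against 81.7 to 89.3), Il22ra2 (3.30 against 1.48 to 1.78), Thbs2 (21.9 against 27.7 to 28.4) and C1qtnf5 (11.4 against 13.1 to 13.2). Duodenal library 2 was apart for Amy2a1, at 1058 CPM against 0.220 to 0.880 CPM. Duodenal library 3 was the high one for Emx2 (0.0889 CPM), Hoxd10 (2.60 against 1.504 to 1.66), Cd209f (8.82 against 4.35 to 4.80) and Mup22 (0.0169 against 0). Duodenal library 4 was high for Cxcr5 (4.50 against 2.51 to 2.72) and low for Bc1 (49.0 against 82.3 to 87.7). Among inguinal libraries, library 1 was apart for Amy2a1 (0.0108 CPM), Glp2r (0.767) and Bpifb3 (14.3), library 2 for Mfap4 (0.218), Gata3 (20.01) and Ccl5 (998), library 3 for Emx2 (2.001) and library 4 for Hmox1 (353 against 136 to 166) and Gzmc (43.2 against 33.4 to 34.9).

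For 6 genes the fold changes placed the duodenal node and the mean of the other gut positions on opposite sides of the inguinal level. Duodenal nodes passed edgeR's test against inguinal nodes and, with and without duodenal libraries 1 and 2, against the other gut nodes. The difference of the other gut nodes from the inguinal node was taken by subtraction and was not tested. Log2 fold changes of the duodenal node against the other gut nodes, the duodenal node against the inguinal node and the other gut nodes against the inguinal node were 4.85, 3.56 and -1.29 for Cnn1, 3.85, 3.24 and -0.61 for Actg2 and 2.72, 2.18 and -0.54 for P2rx1. Without duodenal libraries 2 and 3 the first of these values was 1.86 for Cnn1 (edgeR adjusted p = 0.051), 1.22 for Actg2 (adjusted p = 0.13) and 1.73 for P2rx1. These 3 genes had their highest duodenal levels in libraries 2 and 3, and the part of the smooth muscle transcripts of those libraries was not tested. The same values were 1.85, 0.89 and -0.96 for Tdrd9, whose duodenal libraries were alike. Its jejunal and inguinal levels overlapped within their SD. Coch (-2.09, -1.59 and 0.51) and Tnfsf4 (-1.91, -1.02 and 0.89) had the opposite signs.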

How the results depend on the processing

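Of 146 genes named against inguinal nodes, 135 were called and 117 of these kept the call under all alternatives, and of 2908 alternative values 2857 kept direction and side of the threshold, 29 lost the call, 19 gained it and 3 reversed. Against the other gut nodes 31 of 35 kept the call under all, with 696 of 700 values unchanged in call and 4 lost, those of Cnn1, Actg2, Acta2 and Sox10 without duodenal libraries 2 and 3. The reversed values were Acta2 at -1.32 and Myh11 at -0.68 without duodenal libraries 2 and 3, and Krt8 at -0.14 without libraries 1 and 2, and the cause was not tested. Leaving out each library in turn gave 3301 to 4039 higher and 2888 to 3434 lower genes against inguinal nodes, and 1693 to 2626 and 1275 to 2185 that held, the lowest without duodenal library 4 (1275) and library 3 (1335). Against the other gut nodes it gave 1148 to 2343 higher and 882 to 2005 lower, both lowest without duodenal library 2. Without duodenal libraries 1 and 2, and so with fewer libraries, 2294 genes were lower than in inguinal nodes, and 699 were higher and 372 lower than in the other gut nodes. Without libraries 2 and 3, 1612 higher and 1295 lower genes held, and 753 were higher and 695 lower than in the other gut nodes. The rule for holding leaves out duodenal libraries 1 and 2. It therefore rested on 1 duodenal library where library 3, library 4 or libraries 2 and 3 were also left out. The lower holding counts of those fits cannot show whether the rule on both libraries is stable, because that rule was not applied there. Holding cannot be given without libraries 3 and 4. The replicate block, with the library number as a term, gave 4346 higher and 4146 lower genes (2727 and 2402 holding), and 2593 and 2954 against the other gut nodes. Numbers did not meet the bar for pairing, a correlation over 0.1 in every pair: that of same-numbered duodenal and inguinal libraries was 0.0358, -0.00309, -0.031 and 0.077, and 1 of 4 was closest to its own number. Between duodenal and other gut libraries it was -0.0536 to 0.357, over 0.1 in 6 of 12 pairs, and 9 of 12 were closest to their own number. Depth limits the fold changes of genes whose lower groups held a few reads, among them Ifnb1, Emx2, Mup22, Il22, Bpifb3, Hoxc10 and Tcf21.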
